A study of Citrus maxima with 6 samples.

Results

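The genes described here carry the plant hormone auxin in their annotated name. They are the 144 of 30123 annotated Citrus maxima genes whose deposited name contains "auxin" or "indole-3-acetic acid", the main natural auxin. By name they comprised 20 auxin response factors (ARF), 11 Aux/IAA genes, 53 small auxin up RNA (SAUR) genes, 14 GH3 genes, 21 transport genes, 2 receptor genes and 23 others. The name and the family decided these groups and no measured value did. For 7 genes the best Arabidopsis hit replaced the name, 5 of them B3 transcription factors whose name mentions AUX/IAA but whose best hit is ARF3 or ARF5.

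Indole-3-acetic acid binds F-box receptors of the TIR1/AFB group together with Aux/IAA proteins, which leads to degradation of the Aux/IAA proteins. Aux/IAA proteins otherwise repress ARF transcription factors through TOPLESS corepressors, and GH3 and SAUR genes belong to the classical early targets of ARF proteins. Many GH3 enzymes join auxin to amino acids, SAUR proteins promote cell expansion, PIN carriers export auxin across the plasma membrane, and the PIN-LIKES (PILS) carriers hold auxin at the endoplasmic reticulum. In fleshy fruits auxin is known for its part in fruit set and growth, and its level usually declines before ripening.

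RNA from ripe fruit pulp was sequenced in 3 biological repeats of each of 2 pomelo cultivars. The red-sarcocarp cultivar was Citrus maxima Merr. var. Tubtim Siam, and the white-sarcocarp cultivar was Citrus maxima (Burm.) Osbeck. Both were grown in orchards of the same region, and each repeat mixed sarcocarp from the equatorial plane of 5 fruits, so fruit-to-fruit variation was averaged within a library. The study compared the cultivars for flavonoid biosynthesis and its regulation, and effects of cultivar and of the trees sampled cannot be told apart.

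Expression was read as FPKM, fragments per kilobase of transcript, scaled to the fragments mapped in the library, which corrects for gene length and library size. All genes together reached 812335 to 835575 FPKM in a library, with 15920 to 16250 genes above 0. The auxin genes held from 0.286 to 0.369% of the summed FPKM. In bulk pulp, fewer cells of a type and less RNA per cell cannot be told apart. Other tissues were traced through marker genes, in FPKM summed per library. Seed markers summed to 5.81, 5.40 and 25.51 in red and 0.09, 0.25 and 0.19 in white libraries. Of 6 seed genes, 2 were abundant enough for the test described below. These 2 were higher in red, beside 13.4% of all tested genes. Xylem markers summed to 16.15 to 25.04 in red and 8.20 to 19.89 in white, and the cultivars overlapped. Of 7 xylem genes, 3 were tested and 1 was lower in red, beside 14.1% of all tested genes. The secondary wall cellulose synthase genes hitting CESA7 and CESA8 lay at 0 to 0.04 FPKM in the red libraries and at 0 to 1.83 FPKM in the white ones. The most abundant xylem marker, the XCP2 hit Cg8g000170, measured 24.50, 15.12 and 20.46 FPKM in red and 10.11, 5.47 and 15.09 FPKM in white. Epidermal markers summed to 16.84 to 18.69 in red and to 17.41, 54.48 and 47.56 in white, phloem markers to 19.56 to 23.00 and 20.67 to 29.34, and green tissue markers to 36.90 to 53.28 and 47.67 to 65.48, with 1 of 4 green tissue genes lower in red. The part of these tissues in the auxin gene results was not tested.

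A gene was tested where its mean reached 1 FPKM in either cultivar, which 61 of the 144 auxin genes and 14158 of all genes did. Of the other 83 auxin genes, 61 were listed at 0 in every library and 22 had low values. Differences are log2(FPKM + 0.1) in red minus white, tested with limma and Benjamini-Hochberg adjustment over the 14158 genes. A DEG had a log2 difference of 2 or more in either direction at an adjusted p not above 0.01. A gene that met this adjusted p, with a difference of any size, is called higher or lower here.

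Of the 61 tested auxin genes, 6 were DEGs, 4 of them higher in red, and 2 lower, where 6.76% of all tested genes were DEGs, 3.11% higher and 3.65% lower. At the adjusted p alone, 24 auxin genes were called, 14 higher and 10 lower, beside 27.5% of all tested genes, 13.4% higher and 14.1% lower. The red and white libraries did not overlap for 42 auxin genes, beside 57.7% of all tested genes. The median log2 difference was 0.09 for the auxin genes and 0.02 for all genes, and the median size of the difference was 0.61 and 0.40. All 9 called GH3 and SAUR genes were higher in red, the 4 called transport genes were lower, and the 6 called ARF genes were divided evenly. The summed FPKM of all 144 genes was 2551, 2413 and 2329 in red and 2944, 2999 and 2751 in white, and the red libraries lay below the white ones. Mean sums were 2431 in red and 2898 in white. The means of Cg2g031660, in the group of others, were 217 and 686 FPKM, a gap of about the same size. Other families also differed, in opposite directions that partly offset each other. Mean sums in red and white were 808 and 607 FPKM for SAUR, 113 and 61.4 FPKM for GH3, and 357 and 506 FPKM for transport genes. Without red replicate 1 the higher DEGs numbered 2 and the higher calls 9, and without white replicate 2 the lower calls numbered 6. Calls over all tested genes fell from 3897 to 2074 and 2406 in these settings. Without red replicate 3, the library with the highest seed marker sum, 5 auxin genes were DEGs. Red replicates 1 and 2 still had seed marker sums of 5.81 and 5.40 FPKM, above the 0.09 to 0.25 FPKM in white. The part of seed tissue was thus not tested by leaving out red replicate 3.

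**Figure D1:**
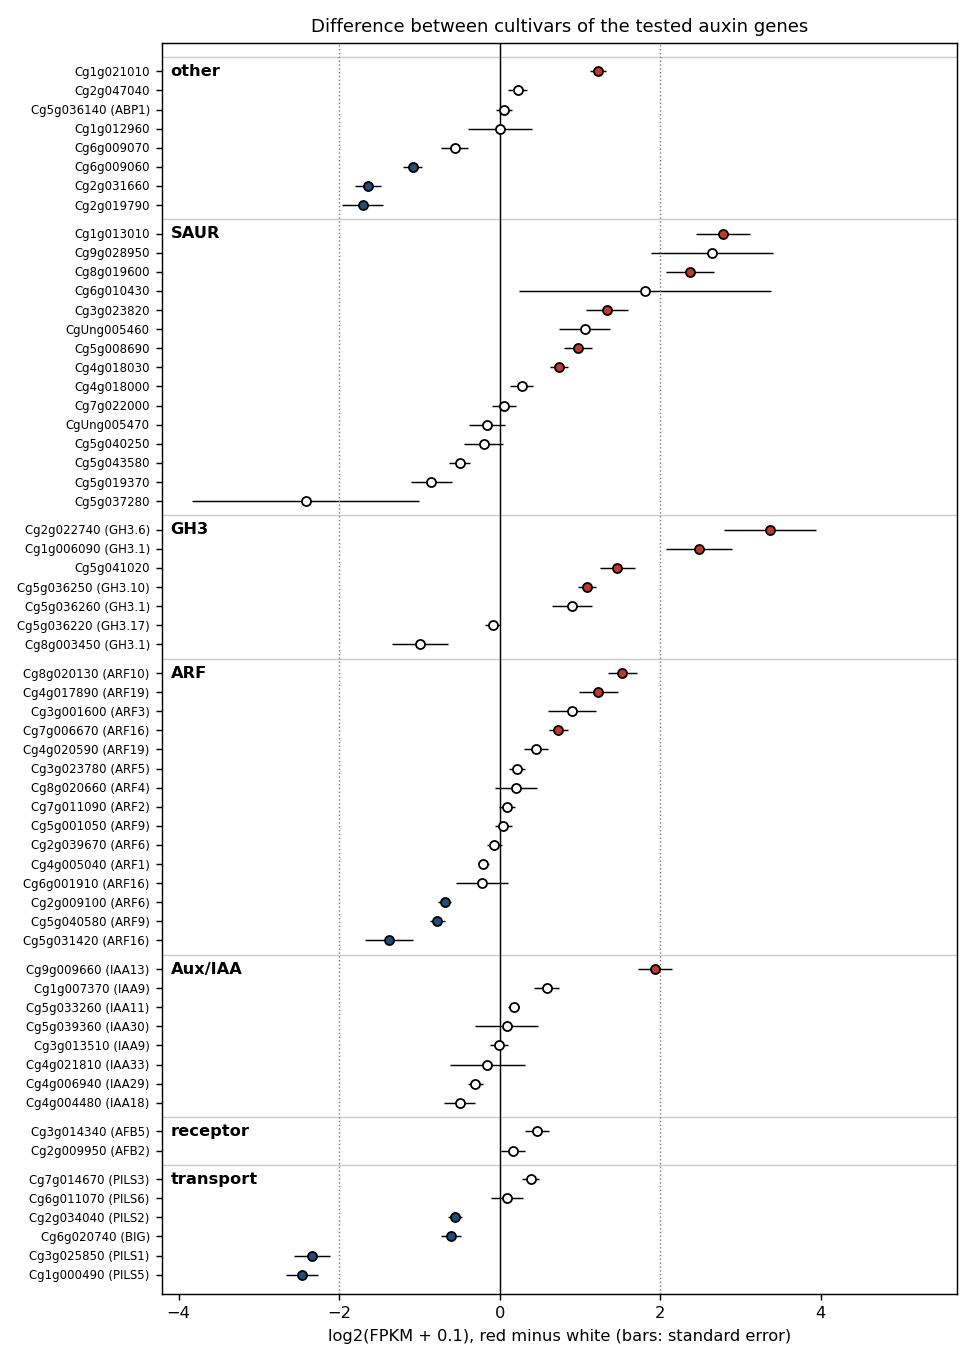
Log2 difference in FPKM (red minus white, pseudocount 0.1) of the 61 tested auxin genes by family, with standard error bars from limma on 3 libraries per cultivar. Red points are higher and blue points lower in red-sarcocarp pomelo at an adjusted p not above 0.01, white points were not called, and dotted lines mark log2 differences of -2 and 2. Filled GH3 and SAUR points lie to the right and filled transport points to the left.

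Among the transport genes, the largest differences lay in PILS-type carriers, which in Arabidopsis sit in the endoplasmic reticulum membrane and limit the auxin available to the nucleus. Cg1g000490, with the best hit PILS5, measured 14.03, 15.99 and 19.01 FPKM in the red libraries and 101.05, 106.79 and 66.84 FPKM in the white libraries. Cg3g025850, with the best hit PILS1, measured 25.62, 22.51 and 18.41 FPKM in red and 78.58, 123.87 and 142.06 FPKM in white. In both genes the lowest white library was at least 3 times the highest red one. Mean FPKM of Cg1g000490 was 5.60-fold higher in white, a log2 difference of -2.46 (SE 0.20, adjusted p = 0.000169 by limma). Mean FPKM of Cg3g025850 was 5.18-fold higher in white, a log2 difference of -2.34 (SE 0.23, adjusted p = 0.000359 by limma). Both remained DEGs in each of the 15 alternative settings tried.

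The other tested PILS-type carriers differed less. Cg2g034040, with the best hit PILS2, was lower in red at 33.73, 32.37 and 29.78 FPKM against 43.54, 47.82 and 49.96 FPKM (log2 difference -0.56, SE 0.09, adjusted p = 0.00252 by limma). Its call was lost without white replicate 2 (adjusted p = 0.0122 by limma) and without white replicate 3 (adjusted p = 0.0107 by limma). The most abundant carrier gene, Cg6g011070 with the best hit PILS6, measured 148.64, 109.78 and 196.48 FPKM in red and 147.78, 130.20 and 137.53 FPKM in white, so the cultivars overlapped (log2 difference 0.09, adjusted p = 0.726 by limma). Cg7g014670, with the best hit PILS3, had the opposite direction at 131.41, 126.66 and 102.69 FPKM in red and 88.61, 89.95 and 96.41 FPKM in white, and was not called (log2 difference 0.38, adjusted p = 0.0237 by limma). Without red replicate 3 it was called higher in red, with a log2 difference of 0.49 (adjusted p = 0.00418 by limma).

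The 11 PILS-type genes together summed to 353, 307 and 366 FPKM in the red libraries and 460, 499 and 495 FPKM in the white libraries, without overlap. Means of the sum were 342 FPKM in red and 484 FPKM in white. Those of Cg1g000490 were 16.3 and 91.6 FPKM and those of Cg3g025850 were 22.2 and 115 FPKM, so the gap of the sum lay in these DEGs. Of these 11 genes, 5 were tested, 5 were listed at 0 throughout, and Cg6g018920 had 1.71 FPKM in white replicate 3 and 0 elsewhere. The 8 PIN-type genes, whose Arabidopsis relatives direct auxin flow between cells, were hardly expressed in the pulp. None was tested, 5 were listed at 0 throughout, and together they summed to 0.25 to 0.53 FPKM in red and 0.49 to 0.88 FPKM in white. The highest PIN-type gene, Cg2g033780 with the best hit PIN3, measured 0.20, 0.33 and 0.08 FPKM in red and 0.66, 0.50 and 0.40 FPKM in white.

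**Figure D2:**
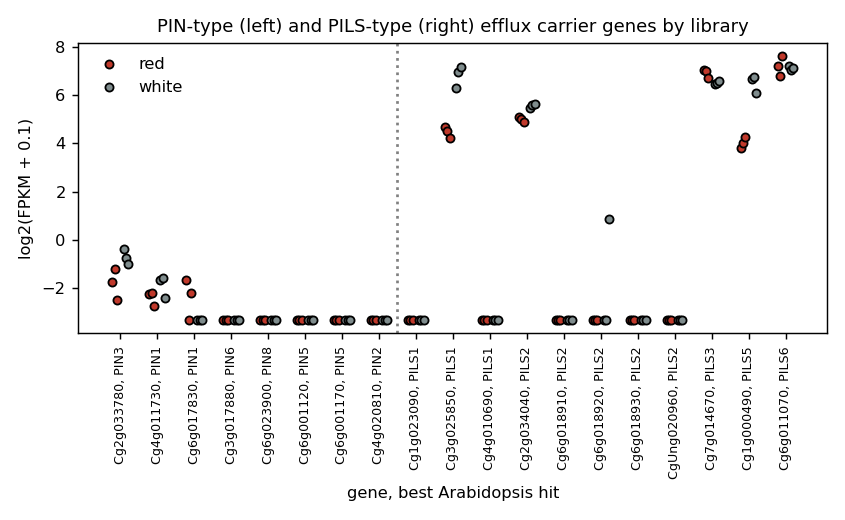
Log2(FPKM + 0.1) of the 8 PIN-type and 11 PILS-type carrier genes in each of the 3 red and 3 white libraries, ordered by best Arabidopsis hit. All PIN-type values lie below 1 FPKM, whereas the PILS1 and PILS5 hits Cg3g025850 and Cg1g000490 show white libraries above red ones and the PILS6 hit Cg6g011070 overlaps.

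The remaining transport genes were BIG and LAX2. Cg6g020740, annotated as BIG, a very large protein needed for polar auxin transport in Arabidopsis, measured 12.29, 12.91 and 15.79 FPKM in red and 18.53, 21.71 and 22.15 FPKM in white. The libraries did not overlap, and the gene was lower in red (log2 difference -0.61, SE 0.13, adjusted p = 0.00836 by limma). This call lay close to the threshold and was lost in 9 of 15 settings, where its adjusted p by limma reached 0.0352. These included leaving out red replicate 1 (0.0352), red replicate 2 (0.0303), white replicate 1 (0.0116), white replicate 2 (0.0335) or white replicate 3 (0.0317). Cg8g001890, annotated as the LAX2 influx carrier, was too low for a test, at 0.22 to 1.22 FPKM in red and 0.11 to 0.60 FPKM in white. The number of called transport genes fell from 4 to 2 without white replicate 2 or without white replicate 3.

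Neither of the F-box receptor genes was called, and 1 had an unadjusted p under 0.05. Cg2g009950, annotated as AFB2, measured 21.34, 25.78 and 17.91 FPKM in red and 20.99, 19.29 and 17.38 FPKM in white (log2 difference 0.16, adjusted p = 0.406 by limma). Cg3g014340, annotated as AFB5, which in Arabidopsis also binds the synthetic auxin picloram, measured 8.87, 8.86 and 7.26 FPKM in red and 6.64, 6.07 and 5.31 FPKM in white. The AFB5 libraries did not overlap, but the difference was not called (log2 difference 0.46, SE 0.14, adjusted p = 0.0353 by limma). Neither receptor was called in any of the 15 alternatives. The auxin binding protein gene ABP1, Cg5g036140, lay at 27.57 to 33.17 FPKM in red and 27.34 to 30.88 FPKM in white (log2 difference 0.05, adjusted p = 0.688 by limma).

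Of the 11 Aux/IAA genes, 8 were tested and 1 was called, beside 27.5% of all tested genes. Cg9g009660, with the best hit IAA13, measured 4.06, 4.03 and 4.61 FPKM in red and 0.86, 1.05 and 1.21 FPKM in white. Every red library was more than 3 times the highest white one (log2 difference 1.94, SE 0.21, adjusted p = 0.000534 by limma), just short of the fold threshold for a DEG. The abundant Aux/IAA genes differed little between cultivars. Cg4g006940, annotated as IAA29 and the highest of the family in white but not in red libraries, measured 98.78, 90.31 and 104.53 FPKM in red and 114.42, 132.57 and 115.26 FPKM in white (log2 difference -0.30, SE 0.09, adjusted p = 0.0338 by limma). Cg5g033260, annotated as IAA11 and the highest of the family in red libraries, ranged from 105.17 to 111.66 FPKM in red and from 94.31 to 100.32 FPKM in white (log2 difference 0.17, adjusted p = 0.0765 by limma). Libraries of IAA29 and IAA11 did not overlap between cultivars, in opposite directions, and neither gene was called.

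Cg4g004480, annotated as IAA18, had the most negative difference of the family. It measured 13.25, 9.65 and 14.97 FPKM in red and 21.20, 15.33 and 16.73 FPKM in white (log2 difference -0.50, SE 0.19, adjusted p = 0.0720 by limma). The summed FPKM of the 11 Aux/IAA genes was 332 ± 11.6 in red libraries and 340 ± 16.6 in white libraries (SD, n = 3 each), with overlapping libraries.

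Of the 20 ARF genes, 15 were tested, 3 were higher and 3 lower in red, and none was a DEG. These calls made up 40.0% of the tested ARF genes, beside 27.5% of all tested genes. ARF proteins of class A activate transcription in Arabidopsis, class B members mostly repress it, and class C members (ARF10, ARF16 and ARF17) are targets of a small RNA. The class C genes held 3 of the 6 calls. Cg8g020130, annotated as ARF10, was higher in red at 7.25, 8.32 and 6.10 FPKM against 2.09, 2.61 and 2.60 FPKM (log2 difference 1.53, SE 0.18, adjusted p = 0.000727 by limma). Cg7g006670, annotated as ARF16, was higher in red at 15.57, 16.43 and 19.08 FPKM against 10.30, 10.74 and 9.53 FPKM (log2 difference 0.73, SE 0.11, adjusted p = 0.00225 by limma). Cg5g031420, also annotated as ARF16, went the other way at 7.47, 9.73 and 4.06 FPKM in red and 19.37, 17.02 and 16.17 FPKM in white (log2 difference -1.38, SE 0.30, adjusted p = 0.00855 by limma).

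Few counted reads stood behind Cg5g031420. The authors' mean normalized count over the 6 libraries was 55.1 for Cg5g031420 and 555 for Cg7g006670, although their FPKM were of similar size. The call of Cg5g031420 was lost in 7 of 15 settings, among them leaving out red replicate 1 (adjusted p = 0.0248 by limma), white replicate 1 (0.0323), white replicate 2 (0.0286) or white replicate 3 (0.0248). The direction stayed negative in all 15. The third ARF16 gene, Cg6g001910, lay at 0.84 to 0.87 FPKM in red and 0.78 to 1.40 FPKM in white, with overlap.

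In class A, Cg4g017890, annotated as ARF19, was higher in red at 5.65, 5.35 and 3.78 FPKM against 1.65, 2.58 and 1.91 FPKM (log2 difference 1.23, SE 0.24, adjusted p = 0.00597 by limma). That call was lost without red replicate 1 (adjusted p = 0.0290 by limma), red replicate 2 (0.0247), white replicate 1 (0.0203) or white replicate 3 (0.0215). Cg2g009100, annotated as ARF6, which promotes flower maturation in Arabidopsis, was lower in red at 21.30, 23.58 and 21.69 FPKM against 37.25, 34.92 and 34.93 FPKM (log2 difference -0.68, SE 0.08, adjusted p = 0.000760 by limma). In class B, Cg5g040580, annotated as ARF9, was lower in red at 14.50, 14.85 and 14.91 FPKM against 28.25, 23.20 and 24.77 FPKM (log2 difference -0.78, SE 0.10, adjusted p = 0.00101 by limma). Neither ARF6 nor ARF9 lost its call in any of the 15 settings. For both genes the 3 red libraries lay close together and below every white library.

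The most abundant ARF was the class B gene Cg7g011090, annotated as ARF2, a repressor in Arabidopsis that acts in seed size and organ ageing. It measured 159.81, 155.17 and 169.07 FPKM in red and 132.14, 170.09 and 154.85 FPKM in white, with overlap (log2 difference 0.09, SE 0.10, adjusted p = 0.514 by limma). ARF2 alone made up 40.9% of the summed ARF expression. The sum over all 20 ARF genes was 378 ± 5.63 FPKM in red libraries and 389 ± 16.1 FPKM in white libraries (SD, n = 3 each), and overlapped.

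Several genes share a best Arabidopsis hit, and in 3 such ARF pairs the copies held different shares in the cultivars. The pairs were picked with their values known and their shares are given as a description. Each held a called gene whose partner was uncalled or called in the other direction, so a different share follows from those calls. Of the summed FPKM of the ARF16 pair Cg5g031420 and Cg7g006670, the first gene held 32.4, 37.2 and 17.5% in red and 65.3, 61.3 and 62.9% in white. The sum of this pair, in contrast, overlapped between cultivars, at 23.04 to 26.16 FPKM in red and 25.70 to 29.67 FPKM in white. For the ARF6 pair Cg2g009100 and Cg2g039670, the first gene held a mean 45.6% in red and 56.3% in white. For the ARF9 pair Cg5g001050 and Cg5g040580, the first gene held 56.8% in red and 42.6% in white. In these 3 pairs the shares of the cultivars did not overlap. Reads shared by near-identical copies can be divided between them in the counting, so the shares of paralogs are uncertain to that extent.

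**Figure D3:**
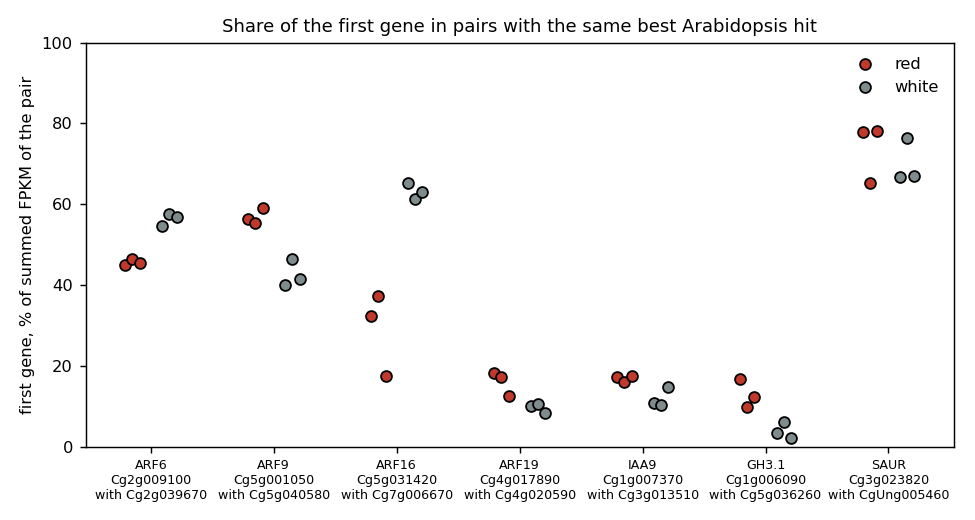
Share of the first gene in the summed FPKM of 7 pairs with the same best Arabidopsis hit, in percent, with a point for each of the 3 red and 3 white libraries. The 7 pairs were picked with their values known. In the ARF16 pair the first gene had a mean of 29.1% in red and 63.2% in white, and the SAUR pair overlaps (73.7% and 70.1%).

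GH3 genes were higher in red where they were called. Of 14 members, 7 were tested and 4 were higher, 2 of them DEGs, beside 13.4% higher and 6.76% DEGs among all tested genes. None was lower by limma, with 1 lower at an unadjusted p under 0.05. The GH3 sum was 108, 125 and 105 FPKM in red and 60.7, 64.3 and 59.2 FPKM in white, a 1.84-fold ratio of the means without overlap. Over the 6 libraries 40.6% of this sum came from Cg5g041020, the largest part in red libraries but not in white ones, where Cg5g036220 was higher. The best hit of Cg5g041020 is JAR1, the Arabidopsis enzyme that joins jasmonate and not auxin to isoleucine. Cg5g041020 measured 52.95, 61.88 and 40.65 FPKM in red and 13.71, 22.41 and 20.36 FPKM in white (log2 difference 1.47, SE 0.22, adjusted p = 0.00196 by limma). Its call was lost without red replicate 1 (adjusted p = 0.0111 by limma).

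Both GH3 DEGs were low in level. Cg2g022740, with the best hit GH3.6, which conjugates indole-3-acetic acid in Arabidopsis, measured 1.56, 1.52 and 0.69 FPKM in red and 0.05, 0.03 and 0.00 FPKM in white. Its log2 difference was 3.36 (SE 0.57, adjusted p = 0.00326 by limma), the most positive of all auxin genes, and ranged from 1.11 with a pseudocount of 1 to 5.37 with another pseudocount. Cg1g006090, with the best hit GH3.1, measured 2.46, 1.83 and 2.42 FPKM in red and 0.42, 0.45 and 0.15 FPKM in white (log2 difference 2.48, SE 0.41, adjusted p = 0.00283 by limma). In neither gene did a white library reach the lowest red library. Their authors' mean normalized counts were 25.3 and 46.2, so few reads lay behind both. Cg2g022740 ceased to be a DEG without red replicate 1 (adjusted p = 0.0222 by limma) or red replicate 2 (0.0185), and Cg1g006090 without red replicate 1 (0.0167) or red replicate 3 (0.0114). With a pseudocount of 0.5 their log2 differences were 1.70 and 1.72, below the fold threshold.

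Cg5g036250, with the best hit GH3.10, was higher in red at 17.67, 20.36 and 19.88 FPKM against 8.43, 9.91 and 8.82 FPKM (log2 difference 1.08, SE 0.11, adjusted p = 0.000404 by limma). The spread within either cultivar was small beside this difference. The other GH3 genes were not called. Cg5g036260, a further GH3.1 hit, measured 12.27, 16.74 and 17.24 FPKM in red and 11.81, 6.89 and 6.62 FPKM in white (log2 difference 0.90, adjusted p = 0.0230 by limma). Cg5g036220, a GH3.17 hit, overlapped at 20.46 to 23.47 and 21.72 to 25.13 FPKM. Cg8g003450, also a GH3.1 hit, had the most negative difference at 0.48, 0.58 and 0.40 FPKM in red and 0.87, 1.04 and 1.3 FPKM in white (log2 difference -0.99, SE 0.35, adjusted p = 0.0540 by limma). The number of called GH3 genes was 1 without red replicate 1, compared with 4 in all libraries.

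The SAUR genes formed the largest family, with 34 of 53 listed at 0 FPKM in all libraries and 15 tested. Of the 15, 5 were higher in red, 2 of them DEGs, beside 13.4% higher and 6.76% DEGs among all tested genes. None was lower by limma, with 2 lower at an unadjusted p under 0.05. Cg1g013010 measured 31.91, 32.16 and 19.15 FPKM in red and 3.5, 2.60 and 6.22 FPKM in white (log2 difference 2.78, SE 0.34, adjusted p = 0.000854 by limma). Cg8g019600 measured 8.57, 4.60 and 9.03 FPKM in red and 1.12, 1.16 and 1.65 FPKM in white (log2 difference 2.37, SE 0.30, adjusted p = 0.00100 by limma). Mean FPKM was 6.76-fold higher in red for Cg1g013010 and 5.65-fold higher for Cg8g019600, and the libraries did not overlap. Cg1g013010 remained a DEG in all 15 settings, and Cg8g019600 in all but a pseudocount of 1, where its log2 difference was 1.82.

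**Figure D4:**
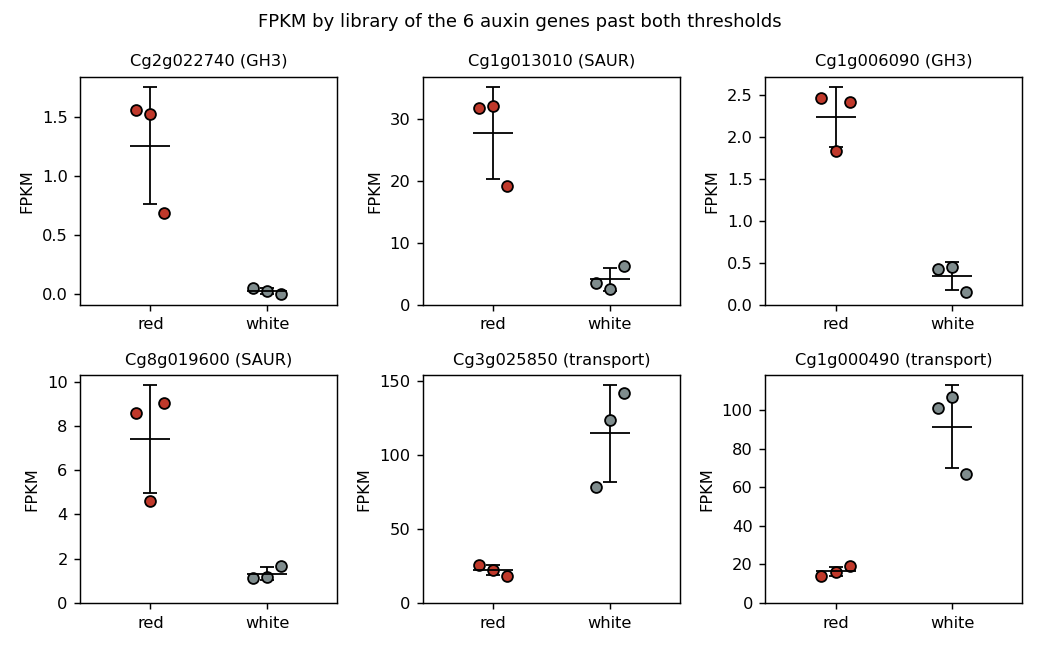
FPKM of the 6 auxin DEGs in each of the 3 red and 3 white libraries, with the mean and SD of each cultivar as bars. The GH3 and SAUR genes Cg2g022740, Cg1g013010, Cg1g006090 and Cg8g019600 are higher in red and the transport genes Cg3g025850 and Cg1g000490 higher in white, with no overlap in any panel.

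A single SAUR gene dominated the expression of the family. Cg4g018030 measured 575.44, 507.64 and 426.69 FPKM in red and 307.10, 299.31 and 293.35 FPKM in white and made up 56.8% of the SAUR sum. It was higher in red by 1.68-fold in mean FPKM (log2 difference 0.74, SE 0.12, adjusted p = 0.00240 by limma). The call was lost without white replicate 2 (adjusted p = 0.0118 by limma) or white replicate 3 (0.0114). The SAUR sum was 903, 842 and 679 FPKM in red and 608, 625 and 587 FPKM in white, without overlap. Means of the sum were 808 FPKM in red and 607 FPKM in white. Those of Cg4g018030 were 503 and 300 FPKM, a gap of about the same size, while other SAUR genes differed in both directions.

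Cg3g023820 was higher in red at 34.10, 19.76 and 16.67 FPKM against 8.88, 10.07 and 7.59 FPKM (log2 difference 1.34, SE 0.26, adjusted p = 0.00582 by limma). Its call was lost without red replicate 2 (adjusted p = 0.0153 by limma), white replicate 1 (0.0207), white replicate 2 (0.0156) or white replicate 3 (0.0235). Cg5g008690 was higher in red at 7.59, 7.63 and 5.57 FPKM against 3.12, 3.69 and 3.52 FPKM (log2 difference 0.98, SE 0.17, adjusted p = 0.00392 by limma). The number of called SAUR genes was 3 without white replicate 1, 2 without white replicate 2 and 2 without white replicate 3.

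Cg9g028950 passed the fold threshold but was not called, with 7.12, 4.03 and 5.16 FPKM in red and 1.12, 0.14 and 2.09 FPKM in white (log2 difference 2.64, SE 0.76, adjusted p = 0.0264 by limma). SAUR genes with lower values in red did not pass the test either. Cg5g037280 had the most negative difference but the widest scatter, at 0.00, 2.20 and 5.27 FPKM in red and 2.51, 12.58 and 5.58 FPKM in white (log2 difference -2.42, SE 1.41, adjusted p = 0.200 by limma). Cg5g043580 measured 62.83, 48.13 and 64.81 FPKM in red and 74.60, 90.10 and 82.17 FPKM in white (log2 difference -0.50, adjusted p = 0.0205 by limma). Cg5g019370 measured 37.82, 64.12 and 29.98 FPKM in red and 70.04, 80.93 and 75.99 FPKM in white (log2 difference -0.85, adjusted p = 0.0305 by limma). Libraries of Cg5g043580 and Cg5g019370 did not overlap, so not every expressed SAUR gene had its higher values in red.

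SAUR genes often carry neighbouring IDs. With a step of at most 100 between the ID numbers of neighbouring members, 36 SAUR genes lay in such runs, of which 8 were tested and 25 were listed at 0 throughout. All 8 SAUR genes from Cg8g000980 to Cg8g001060 were listed at 0. Of the 13 from CgUng005170 to CgUng005470, 10 were listed at 0 and 2 were tested, among them CgUng005470 at 35.85 to 64.81 FPKM in red and 48.66 to 64.88 FPKM in white. How reads shared by similar copies were treated is not given in the sources used here, so the values of single SAUR genes are uncertain. Of the 61 auxin genes listed at 0 throughout, 12 had an authors' mean normalized count above 0 and 1 had a count above 3.

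The other members held the most abundant auxin gene of white pulp, which in red pulp lay below the SAUR gene Cg4g018030. Cg2g031660, of the dormancy/auxin associated family, whose relatives in Arabidopsis and pea mark dormant buds and are repressed by auxin, measured 240.06, 189.29 and 222.95 FPKM in red and 809.58, 707.41 and 540.08 FPKM in white. The lowest white library was more than 2 times the highest red one. Mean FPKM was 3.15-fold higher in white (log2 difference -1.64, SE 0.16, adjusted p = 0.000381 by limma), and the call held in all 15 settings. The second gene of this name, Cg1g012960, lay at 0.64 to 1.75 FPKM in red and 0.91 to 1.29 FPKM in white, with overlap.

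Of the 18 genes named auxin-responsive family protein, 3 were tested and 2 were lower in red, beside 14.1% of all tested genes. The best hits of these 3 encode membrane or cell surface proteins with the DOMON domain of cytochrome b561 type proteins, among them AIR12, a protein of auxin-induced root cultures. Cg2g019790 measured 11.44, 14.43 and 16.69 FPKM in red and 30.99, 51.50 and 61.19 FPKM in white (log2 difference -1.71, SE 0.26, adjusted p = 0.00206 by limma). Cg6g009060, the AIR12 hit, measured 17.29, 15.91 and 20.22 FPKM in red and 34.73, 37.74 and 40.90 FPKM in white (log2 difference -1.09, SE 0.12, adjusted p = 0.000494 by limma). Cg6g009070, next to it by ID, was not called at 105.98, 105.52 and 89.56 FPKM in red and 114.27, 173.91 and 162.35 FPKM in white (log2 difference -0.56, adjusted p = 0.0286 by limma). In all 3 genes each white library lay above every red one. The call of Cg2g019790 was lost without red replicate 1 (adjusted p = 0.0106 by limma) or white replicate 2 (0.0109).

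Both SUPPRESSOR OF AUXIN RESISTANCE genes encode nucleoporins in Arabidopsis, whose loss restores auxin response in a resistant mutant. Cg1g021010 (SAR3) was higher in red at 19.37, 20.93 and 18.31 FPKM against 7.91, 8.13 and 8.84 FPKM (log2 difference 1.23, SE 0.10, adjusted p = 0.000195 by limma). Cg2g047040 (SAR1) was not called at 11.42, 11.28 and 10.88 FPKM against 8.75, 10.74 and 9.35 FPKM (log2 difference 0.22, adjusted p = 0.148 by limma). The SAR3 difference held in all 15 settings.

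The name rule leaves out auxin genes described in other words. A list of Arabidopsis genes for auxin synthesis, conjugation, transport, perception, repression and corepression found 80 further pomelo genes by best hit, 40 of them tested. Of these, 4 were DEGs, all higher in red, beside 6.76% of all tested genes. A total of 17 were called, 11 higher and 6 lower, beside 27.5% of all tested genes, 13.4% higher and 14.1% lower. The number called was 8, 9 and 11 without red replicates 1, 2 and 3. It was 9 and 10 without white replicates 1 and 2. Calls over all tested genes also fell, from 3897 to 2074, 2606, 3395, 2753 and 2406 in the same order.

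Among the carriers outside the name rule, Cg5g039240, with the best hit ABCB21, an Arabidopsis transporter that moves auxin in both directions, was higher in red at 45.26, 45.17 and 57.78 FPKM against 7.97, 13.50 and 10.84 FPKM (log2 difference 2.21, SE 0.20, adjusted p = 0.000261 by limma). Cg6g024720, an ABCB19 hit, Cg7g001220, an AUX1 hit, and Cg7g023480, a hit of the ABCB partner TWD1, were also higher, with log2 differences of 0.67, 0.71 and 0.34. Cg3g011050, an ABCB1 hit, was lower in red at 5.12, 5.10 and 7.29 FPKM against 14.19, 15.16 and 12.44 FPKM (log2 difference -1.26, SE 0.17, adjusted p = 0.00130 by limma). Of 6 tested carriers and partners outside the rule, 4 were thus higher and 1 lower, beside 13.4% and 14.1% of all tested genes. The called transport genes inside the rule, 3 carriers and BIG, were lower.

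Of 7 tested hits of the list for auxin conjugation and breakdown, 1 was higher and 2 were lower in red, beside 13.4% and 14.1% of all tested genes. Cg3g016650, with the best hit ILL6, a hydrolase of amino acid conjugates that in Arabidopsis acts on jasmonate conjugates, measured 193.66, 250.24 and 155.35 FPKM in red and 28.51, 26.99 and 27.51 FPKM in white. Its mean FPKM was 7.22-fold higher in red (log2 difference 2.82, SE 0.16, adjusted p = 4.97e-05 by limma), and all red libraries lay above all white ones. Cg6g014920, with the best hit ILR1, which releases auxin from its leucine conjugate, was lower in red at 218.82, 190.43 and 220.16 FPKM against 265.90, 282.77 and 290.35 FPKM (log2 difference -0.42, SE 0.09, adjusted p = 0.00741 by limma). Both main IAR3 hits overlapped and were not called, Cg5g017210 with a log2 difference of 0.08 and Cg1g009290 with 0.12. Cg7g019990, an IAR3 hit near 1 FPKM, was lower, at 0.38 to 0.44 FPKM in red and 1.02 to 2.46 FPKM in white (log2 difference -1.76). The auxin synthesis genes were low in the pulp, with 4 of 13 tested and none called by limma, although 3 had an unadjusted p under 0.05. Cg5g005400, with the best hit TAR2, a tryptophan aminotransferase of the main synthesis route, came closest at 2.59, 2.63 and 1.56 FPKM in red and 0.54, 0.93 and 0.78 FPKM in white (log2 difference 1.46, SE 0.33, adjusted p = 0.0104 by limma).

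In perception, Cg5g036670, with the best hit TIR1, overlapped between cultivars at 8.86 to 13.86 FPKM in red and 10.77 to 11.92 FPKM in white (log2 difference -0.12, adjusted p = 0.614 by limma). The most abundant hit of the cell surface kinase TMK1, Cg2g029000, overlapped at 108.49 to 155.80 FPKM in red and 133.52 to 140.34 FPKM in white (log2 difference -0.11, adjusted p = 0.546 by limma). Cg6g014580, a TMK1 hit of lower level, was lower in red at 6.46, 7.38 and 7.88 FPKM against 15.85, 14.84 and 13.62 FPKM (log2 difference -1.02, SE 0.12, adjusted p = 0.000741 by limma). Cg5g014470, a low hit of the ubiquitin ligase subunit ASK1, was a DEG at 2.35, 3.69 and 2.91 FPKM in red and 0.41, 0.74 and 0.08 FPKM in white (log2 difference 2.83, SE 0.57, adjusted p = 0.00666 by limma). It lost this status in 9 of 15 settings, including the removal of any red library (adjusted p = 0.0219, 0.0279 and 0.0205 by limma without red replicates 1, 2 and 3) or of white replicate 1 (0.0179). The main ASK1 hit Cg3g024420, at 405.52 to 487.30 FPKM in red and 355.40 to 374.31 FPKM in white, was not called (log2 difference 0.32, adjusted p = 0.0262 by limma).

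Repressors and corepressors outside the name rule added to the Aux/IAA picture. Cg5g034610, an Aux/IAA gene with the best hit IAA4, measured 27.18, 13.48 and 36.57 FPKM in red and 1.33, 2.24 and 2.77 FPKM in white. Its log2 difference of 3.49 (SE 0.40, adjusted p = 0.000681 by limma) met the DEG thresholds in all 15 settings. Cg1g012560, an IAA27 hit, was higher in red at 3.6, 2.26 and 2.25 FPKM against 0.56, 0.77 and 0.54 FPKM (log2 difference 1.93), and Cg1g014320, an IAA8 hit, was lower at 43.67, 33.44 and 41.84 FPKM against 75.75, 67.90 and 52.79 FPKM (log2 difference -0.72). Over both lists, 14 of 21 Aux/IAA genes were tested, 3 were higher and 1 lower, beside 13.4% and 14.1% of all tested genes. The summed FPKM of the 21 genes overlapped, at 399.94 to 452.44 in red and 410.55 to 451.90 in white.

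The TOPLESS family, the corepressors recruited by Aux/IAA proteins, was higher in red in 3 of 7 tested genes and lower in none. Among all tested genes 13.4% were higher and 14.1% lower. At an unadjusted p under 0.05 by limma, 0 corepressor genes were lower. Cg9g002050, annotated as TOPLESS-related 2, measured 32.95, 32.97 and 32.41 FPKM in red and 14.67, 15.31 and 13.44 FPKM in white, with a log2 difference of 1.18 (SE 0.09, adjusted p = 0.000123 by limma). Cg4g006960, a TPR4 hit, measured 62.91, 63.08 and 64.06 FPKM in red and 31.72, 34.46 and 37.25 FPKM in white, with a log2 difference of 0.88 (SE 0.08, adjusted p = 0.000300 by limma). Cg2g032030, annotated as TOPLESS-related 3, had a log2 difference of 0.51. The most abundant corepressor, Cg4g001850 (TOPLESS-related 1), was not called, at 97.94 to 99.46 FPKM in red and 104.75 to 113.59 FPKM in white (log2 difference -0.14, adjusted p = 0.125 by limma). The sum over 8 corepressor genes was 1.21-fold higher in red and did not overlap.

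**Figure D5:**
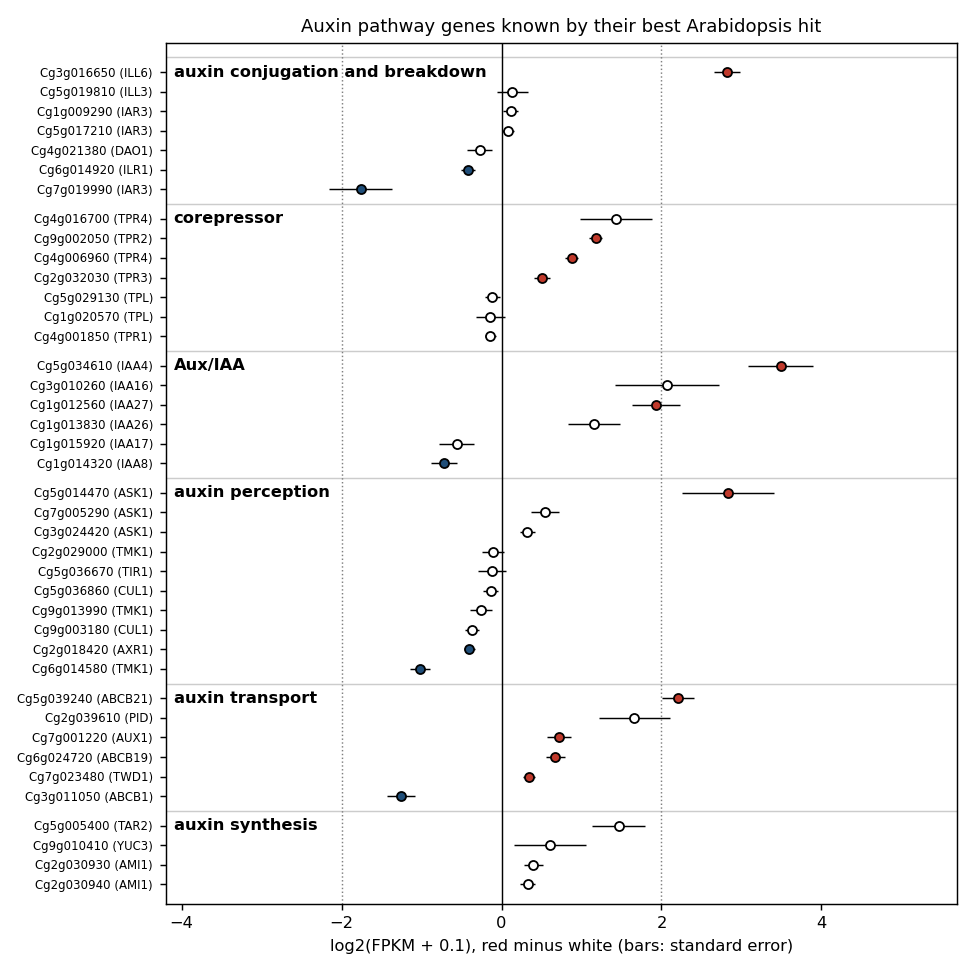
Log2 difference in FPKM (red minus white, pseudocount 0.1) of the 40 tested auxin pathway genes outside the name rule, by role, with standard error bars from limma on 3 libraries per cultivar. Red points are higher and blue points lower in red at an adjusted p not above 0.01, white points were not called, and the 4 genes beyond the dotted line at 2 with a filled point are Cg5g034610, Cg3g016650, Cg5g014470 and Cg5g039240.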

How the data were processed

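Per the paper, the authors trimmed reads with Trimmomatic, mapped them with STAR (2.7.1a) to version 1.0 of the pomelo genome, counted them with featureCounts (2.0.1) and obtained FPKM with RSEM (1.3.1). The libraries came from a kit that does not mark strand, so reads of overlapping antisense genes cannot be told apart. The deposited FPKM cover each gene in each library, rounded to 2 decimals, and the authors added a mean normalized count over the 6 libraries, a signal used here as their value. The deposited fold changes, p-values and other columns of their DESeq2 comparison were not used, and 0 FPKM columns were left out. The paper reports the clean bases per library, which were not used here. FPKM hold no counts, so the counting error of each gene per library is unknown, and precision rests on the 3 repeats.

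Families followed the gene name, with 7 genes reassigned by best Arabidopsis hit. The test was run in R 4.3.3 by limma 3.58.1 on the FPKM as log2(FPKM + 0.1) (cultivar as the only term, empirical Bayes with trend), which understates changes of low genes, and the step was tested on simulated data. It stood in for the study's count test, as no count per library was at hand. Tables and figures were made in Python 3.11.15 with pandas 2.3.3. Named genes were all DEGs, the highest member and the extremes of each family, the 10 largest differences in each direction among called members without overlap, and pathway DEGs. Further members were named with their values known. The members, lists and tests were chosen with earlier results of these data known. Alternatives covered pseudocounts, filters, normalization, trend, thresholds, a replicate block and each library left out. No reference sequence was used here.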

Additional observations from a re-analysis of the deposited data

Results flagged for a closer look

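The SAUR gene Cg9g006970 was listed at 0 FPKM in all 6 libraries, while the authors' mean normalized count was 5.57. The pathway gene Cg5g020270, an ASK1 hit, was also listed at 0 FPKM throughout and had an authors' mean normalized count of 7.58. Both stand out because a count was present in a column that the comparisons did not use, and the cause was not tested.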

How the results depend on the processing

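The counts of auxin genes depended on the pseudocount and on single libraries. The 6 DEGs became 3 with a pseudocount of 1 and 19 with a log2 difference of 1 and an adjusted p of 0.05 as thresholds. The 4 higher DEGs became 2 with a pseudocount of 0.5, 1 with a pseudocount of 1 and 13 with these wider thresholds, which also gave 6 lower genes instead of 2. The share of all tested genes past these wider thresholds was not counted, so nothing is concluded from the 19, 13 and 6. With the replicate number as a block, 2 DEGs were higher, 9 auxin genes instead of 14 were called higher, 2 GH3 genes instead of 4 were called, and 9 pathway genes instead of 17 were called. Same-numbered libraries did not deviate together (correlations 4e-04, 0.0309 and -0.0446 for numbers 1 to 3), so the number was not taken as a pairing. Without the mean-variance trend, 10 pathway genes were called. Across all genes, a pseudocount of 1 gave 530 DEGs instead of 957, and the block gave 2712 calls instead of 3897.

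Leaving out each library in turn gave 4 to 7 auxin DEGs (2 to 5 higher, 2 lower each time) and 16 to 25 calls (9 to 15 higher, 6 to 10 lower). It gave 4 to 6 called ARF, 1 Aux/IAA each time, 1 to 5 GH3, 2 to 6 SAUR, 2 to 5 transport, 0 receptor and 3 to 5 other genes. Pathway genes gave 3 to 6 DEGs and 8 to 12 calls. The fewest auxin calls, 16, came without red replicate 1, where 9 were higher, and the fewest lower calls, 6, came without white replicate 2. Calls over all tested genes also fell, from 3897 to 2074 without red replicate 1 and to 2406 without white replicate 2. Fewer auxin and pathway calls with a library left out are thus not particular to these genes. The sign turned only for uncalled genes, Cg6g011070, whose log2 difference ran from -0.11 without red replicate 3 to 0.30 without red replicate 2, and Cg7g011090, from -0.0093 without white replicate 1 to 0.17 without white replicate 2. Over the named genes and alternatives, 449 values kept direction and call, 54 lost the call or, for DEGs, either threshold, and 2 gained the call.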
